A study of Rattus norvegicus with 183 samples.

Results

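The libraries described here are those at both ends of the range of Chat in the posterior ventral tegmental area of rats. Chat encodes choline acetyltransferase, the enzyme that makes acetylcholine. Counts per 1e6 counts of the library (CPM) were computed, and the 141 libraries with at least 10 CPM of Th, the gene of the rate-limiting enzyme of dopamine synthesis, were ranked by Chat CPM. The 30 highest and the 30 lowest were selected on Chat, so 60 of the 152 libraries with values entered, and 81 libraries lay in neither side. Because Chat chose the sides, its values are a description and carry no test.

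Each library is polyA RNA from the posterior ventral tegmental area of an outbred heterogeneous stock rat, a stock descended from several inbred strains. The labels give 1 tissue and no treatment, sex, age or strain of the single animal, so the sides are not groups of the study. The identifier in the sample title is a decimal number in 12 of the 30 highest and 8 of the 30 lowest libraries, and a hexadecimal number in 18 and 22. The single library with another form of identifier is in neither side. Libraries are named here by that format and by their number within it in accession order. No label says whether the format marks a batch, and p-values measure the spread between these libraries.

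Acetylcholine neurons make their transmitter with choline acetyltransferase, load it into vesicles with the transporter encoded by Slc18a3 and take choline back up with the transporter encoded by Slc5a7. The oculomotor nucleus, whose motor neurons move the eye, and the peptide neurons of the Edinger-Westphal nucleus lie near the ventral tegmental area, and the fibres of the oculomotor nerve leave the brain beside it. Phox2a, a homeodomain transcription factor, is required for the development of oculomotor neurons. Prph, the gene of the intermediate filament peripherin, marks neurons whose axons leave the brain or spinal cord.

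Total estimated counts were 15.9 to 41.7 M (1e6) in the 30 highest libraries (median 24.5) and 15.5 to 57.2 M in the 30 lowest (median 22.7). Th had medians of 1622 and 1728 CPM and did not pass the test described below, with a log2 difference of -0.15 (SE 0.14, limma adjusted p = 0.50). Xist exceeded the Y-linked Ddx3y in 16 and 17 libraries. Slc17a7, which marks cortical glutamate neurons, passed 100 CPM in 2 of the 30 highest and in 0 of the 30 lowest.

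Some libraries stood apart from the rest. The long noncoding RNA LOC134479241 (chromosome 6) had 14.7 to 149.5 CPM in 35 of the 141 libraries, 32 of them hexadecimal, 2 decimal and 1 of the other form, and at most 6.28 CPM in the other 106. These 35 were not spread evenly over the ranking: 13 were among the 30 lowest in Chat, 2 among the 30 highest and 20 in neither side. Median Chat was 1.12 CPM in the 35 libraries and 1.55 CPM in the 106. Lrrc58, which encodes a leucine-rich repeat protein, had a median of 5.30 CPM in the 35 and 33.2 CPM in the 106. The dividing transcript and this gene were chosen after their values were seen. Results between the sides are therefore given with and without the libraries that have at least 10 CPM of LOC134479241, called LOC134479241-high below.

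Chat was low in nearly all libraries. It ranged from 2.05 to 33.1 CPM in the 30 highest (median 2.39) and from 0.150 to 0.971 CPM in the 30 lowest (median 0.756), with medians of 58.5 and 16.0 estimated counts per library. The libraries on the edges of the sides are close to their neighbours. The 30th library had 2.046 CPM (exact Poisson 95% interval 1.57 to 2.65, counting error only) and the 31st 2.045 CPM (1.39 to 2.90), while at the lower edge the values were 0.972 CPM outside (0.602 to 1.49) and 0.971 CPM inside (0.555 to 1.58). Counting error spans both edges, so that membership next to an edge is not resolved at this depth. Decimal library 20, the highest, and decimal library 13, one of the 30 lowest, carry labels that the submitters exchanged with those of decimal libraries 2 and 17, both in neither side. Sides were formed from each column's own values, so such an exchange changes a library's name but not its side.

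**Figure D1:**
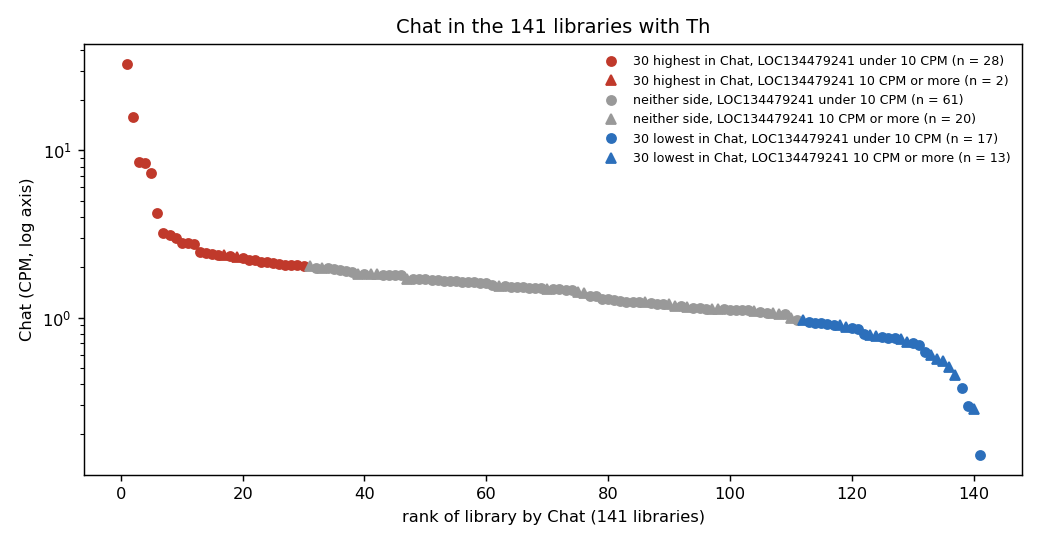
Chat in CPM (log axis) against the rank of the library, for the 141 libraries with Th, 1 point per library, coloured by side, with triangles for libraries at 10 CPM or more of LOC134479241. A steep stretch of 6 libraries between 4.21 and 33.1 CPM is followed by a gradual decline, and triangles are 13 of the 30 lowest and 2 of the 30 highest.

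The upper end has a steep part. Decimal library 20 had 33.1 CPM of Chat, decimal library 8 had 15.9, decimal library 48 had 8.50, decimal library 10 had 8.39, hexadecimal library 30 had 7.29 and hexadecimal library 20 had 4.21 CPM. The 7th library followed with 3.21 CPM, and the other 24 of the 30 highest spanned 2.05 to 3.21 CPM. None of the 6 highest libraries is LOC134479241-high, and their Slc17a7 was at most 7.66 CPM. The number 6 was chosen after the values were seen, as the libraries above 4 CPM, and the values that follow for them carry no test.

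Slc18a3, the vesicular acetylcholine transporter gene, followed Chat most closely. It had 26.8, 15.7, 7.62, 7.82, 4.50 and 3.54 CPM in the 6 libraries in the order given above, and a median of 1.13 CPM in the other 135, of which 1 exceeded the lowest of the 6. The 2 genes share a locus: Slc18a3 (chromosome 16, 7719953 to 7722814 in GRCr8) lies within the span of Chat (7663665 to 7723416), with the starts 602 bases apart, so reads may be shared and Slc18a3 was not tested either. Over the 30 highest and the 30 lowest libraries its medians were 1.72 and 0.629 CPM, and 11 of the 30 highest lay above all of the 30 lowest.

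Slc5a7, the choline transporter gene, lies on another chromosome (9, 7922693 to 7953509) and was high in the same libraries. It had 73.6, 31.7, 20.8, 16.7, 10.6 and 13.1 CPM in the 6, against a median of 4.85 and a maximum of 12.8 CPM in the other 135, of which 3 exceeded the lowest of the 6. Below this steep part Slc5a7 did not order with Chat (Pearson r = 0.13 over the other 135). The 30 lowest libraries in Chat had 1.60 to 12.8 CPM of Slc5a7 (median 5.30), and their highest value was also the highest among the 135.

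Because Chat and Slc5a7 were high in the same 6 libraries, the 250 bases before each gene's start are shown, from RefSeq (GRCr8). Both genes are on the minus strand, and the sequences are written 5′ to 3′ in the direction of the gene, ending at the base before its start. Capitals mark TAAT, the core of many homeodomain binding sites, searched on both strands (TAAT or ATTA).
Chat, chr16:7723417-7723666: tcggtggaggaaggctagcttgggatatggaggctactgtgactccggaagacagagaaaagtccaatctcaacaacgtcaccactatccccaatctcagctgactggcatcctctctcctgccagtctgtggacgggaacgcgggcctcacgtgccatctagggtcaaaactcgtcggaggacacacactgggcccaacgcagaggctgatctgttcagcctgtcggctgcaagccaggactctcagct
Slc5a7, chr9:7953510-7953759: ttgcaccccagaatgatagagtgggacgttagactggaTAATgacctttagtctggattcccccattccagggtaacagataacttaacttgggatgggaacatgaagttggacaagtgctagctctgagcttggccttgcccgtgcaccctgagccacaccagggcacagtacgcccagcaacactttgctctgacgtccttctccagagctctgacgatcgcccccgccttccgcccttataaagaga
The Slc5a7 window holds 1 such match, 212 bases before the start, and the Chat window 0. Of 33469 windows of the same length, 57% hold at least 1 match, so the letters are common and the match is a description only.

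The motor neuron transcription factor genes were at very low levels, apart from Nkx6-1, and several had their highest values in the same 6 libraries. The summed level of the 9 listed had medians of 20.3 CPM in the 6 and 19.3 CPM in the libraries of neither side. Lhx4, a LIM homeodomain gene used in early motor neurons, had 9.15, 3.55, 4.18, 2.52, 1.75 and 1.85 CPM in the 6 libraries and a median of 0.693 CPM elsewhere, with 6 of the 135 above the lowest of the 6. Tbx20, a T-box gene of cranial motor neurons, had 0.162 to 1.25 CPM in the 6 and a median of 0.0708 CPM elsewhere. Isl1, a LIM homeodomain gene of motor neurons and of other neurons, reached 0.768 CPM in the 6 but 2.92 CPM in a library of neither side. Phox2a was at most 0.340 CPM in the 6 and up to 0.772 CPM elsewhere. Mnx1 and Lhx3, genes of spinal motor neurons, were at most 0.0486 and 0.551 CPM in the 6. In all, 5 of the 9 listed transcription factor genes had each of the 6 libraries above the median of the other 135. Beside this stand 1631 of the 15544 genes that entered the tests below, but only 1 of the 9 is among those 15544. At such low levels very few counts can place a library above the median: Isl1 had 0.0303 CPM in hexadecimal library 20, where 3 counts make 0.0909 CPM.

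**Figure D2:**
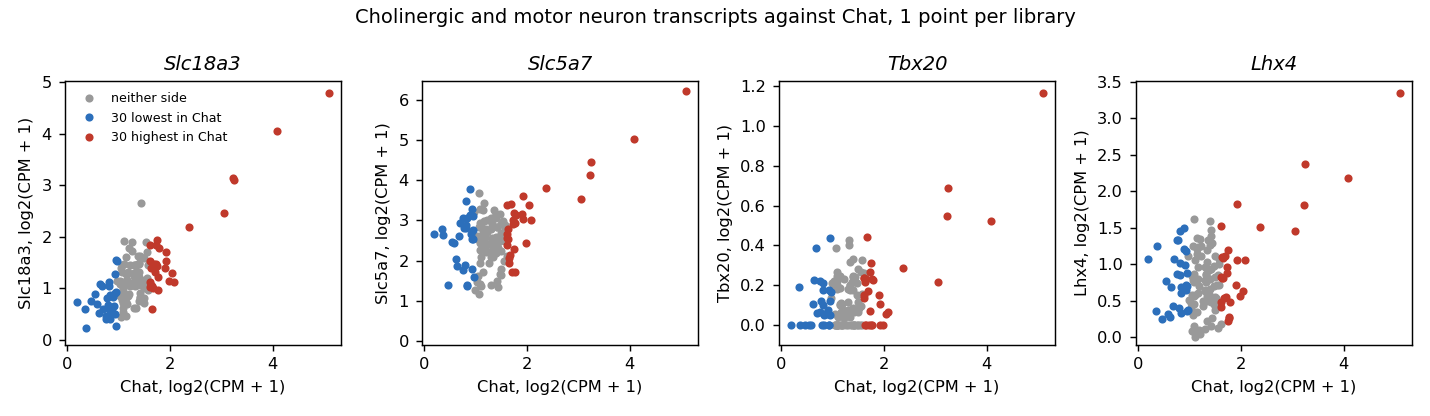
Levels of Slc18a3, Slc5a7, Tbx20 and Lhx4 against Chat, each as log2(CPM + 1), 1 point per library (141), coloured by side. The highest library in Chat is also the highest in all 4 panels, and in the Tbx20 panel the 2 lowest of the 6 (0.162 and 0.221 CPM) lie among the others, while Pearson r among the other 135 is 0.13 for Slc5a7 and 0.03 for Lhx4.

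The likeness of all genes to Chat was ranked by Pearson r on the log2(CPM + 1) scale over the 141 libraries, among 19654 genes that reached 1 CPM in a library. It is a description, since all points share the 6 extreme libraries. Among the leading 12 were Slc18a3 (r = 0.81), Uts2 (0.65), LOC134485844 (0.60), Tbx20 (0.58) and Slc5a7 (0.56). Without the 6 libraries r was 0.50 for Slc18a3, 0.11 for Uts2, 0.05 for LOC134485844, 0.10 for Tbx20 and 0.13 for Slc5a7. The 6 libraries thus carry most of the likeness for all of these except Slc18a3, which keeps part of it. Uts2, the urotensin II gene, which is made in cholinergic neurons, had 1.90 CPM in the highest library and a median of 0 CPM in the 135. The leading 12 also held Lingo4, Apbb2, Dennd1b, Lhx4, Trim2 and Tanc1, with r between 0.50 and 0.53, and between 0.03 and 0.36 without the 6.

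Prph was higher in the 6 libraries but did not order with Chat. It had 126.1, 105.2, 73.5, 73.01, 86.2 and 84.5 CPM there, against a median of 50.8 CPM in the other 135, and 25 of the 135 exceeded the lowest of the 6. Its overall maximum, 136.2 CPM, was in a library of the 30 lowest in Chat. The marker therefore does not separate the sides: Prph spanned 34.4 to 126.1 CPM in the 30 highest (median 55.4) and 22.1 to 136.2 CPM in the 30 lowest (median 47.1). The log2 difference was 0.11 (SE 0.14, limma adjusted p = 0.64).

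Chodl, which marks fast motor neurons, had 1.00 to 6.79 CPM in the 6 libraries and a median of 0.458 CPM in the 135, where 20 exceeded the lowest of the 6. Esrrb, an orphan nuclear receptor gene, had 12.0 to 36.0 CPM in the 6 and a median of 9.27 CPM elsewhere. Calca, which encodes the calcitonin gene-related peptide and is abundant in many motor neurons, had 0.804 to 2.43 CPM in the 6 and a median of 1.68 CPM elsewhere. Of the 12 listed motor neuron effector genes, 6 had each of the 6 libraries above the median of the others and 2 had each below it. Of the 15544 genes that entered the tests below, 1631 lay above and 2351 below in this way.

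Genes of large neurons with thick, fast axons were high in all 6. The neurofilament heavy chain gene Nefh had 1729 to 3594 CPM there, with a median of 630.4 CPM and a maximum of 2429 CPM in the other 135, of which 6 exceeded the lowest of the 6. Each of the 11 listed genes of large projection neurons had all 6 libraries above the median of the 135, beside 1631 of the 15544 genes that entered the tests below. They include the voltage-gated potassium channel gene Kcna1 (287.4 to 625.1 CPM against a median of 209.6) and the osteopontin gene Spp1 (491.0 to 984.2 CPM against 159.0). The summed level of the 11 was 7238 to 15270 CPM in the 6 and had a median of 3967 CPM in the libraries of neither side. These genes are not limited to motor neurons, since other large midbrain neurons also use neurofilaments.

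Dopamine neuron genes were low in the same libraries. Of the 12 listed, 10 had each of the 6 libraries below the median of the other 135, beside 2351 of the 15544 genes. Th had 577.2 to 1596 CPM in the 6 and a median of 1824 CPM elsewhere, and the dopamine transporter gene Slc6a3 had 376.7 to 770.5 CPM and a median of 791.9 CPM. In bulk tissue, fewer cells of a type and less RNA per cell cannot be told apart.

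Peptide neurons of the Edinger-Westphal nucleus were read from Cartpt, the gene of the CART peptide, and Ucn, the urocortin gene. Cartpt had 9.39 to 182.9 CPM in the 6 libraries, but 39 of the 135 exceeded the lowest of the 6 and the overall maximum, 612.9 CPM, was in one of the 30 lowest. Ucn had 0.666 to 14.4 CPM in the 6 and up to 41.7 CPM elsewhere. Among genes of other cholinergic cells, Lhx8, which specifies forebrain cholinergic neurons, was at most 0.0324 CPM in the 6. Nos1, which is made in mesopontine cholinergic neurons and in many others, had 29.6 to 147.0 CPM in the 6 and a median of 97.2 CPM elsewhere. Of the 6 listed mesopontine genes, 1 had each of the 6 libraries above the median of the other 135 and 1 had each below it, beside 1631 above and 2351 below of the 15544 genes. The 1 above was Uts2, with 0.0606 to 1.90 CPM in the 6 and a median of 0 CPM elsewhere, so any count meets this measure. Of the 135, 20 exceeded the lowest of the 6.

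All genes were next compared between the 30 highest and the 30 lowest libraries, on log2(CPM + 1) with the identifier format as a covariate (limma, Benjamini-Hochberg over 15544 genes with a mean of at least 1). Chat and Slc18a3 were left out. Of the 15544, 1359 (8.74%) were higher and 1144 (7.36%) lower in the high side at an adjusted p under 0.05, 2503 (16.1%) in all, and 5092 (32.8%) had an unadjusted p under 0.05, with a median difference of 0.01 over all genes. Without the 15 LOC134479241-high libraries, which leaves 28 against 17, 1 gene passed (0.00643%), and 2034 genes (13.1%) had an unadjusted p under 0.05. The differences kept their sign in 2417 of the 2503 genes. These genes were called with the same libraries included, so the shared sign is not independent support. With both the 15 and the 6 highest libraries left out, 0 genes passed (0%), 1195 had an unadjusted p under 0.05 (7.69%), and without the 6 highest alone 304 passed (1.96%), of which 301 are among the 2503. These fits were chosen after the data were seen.

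**Figure D3:**
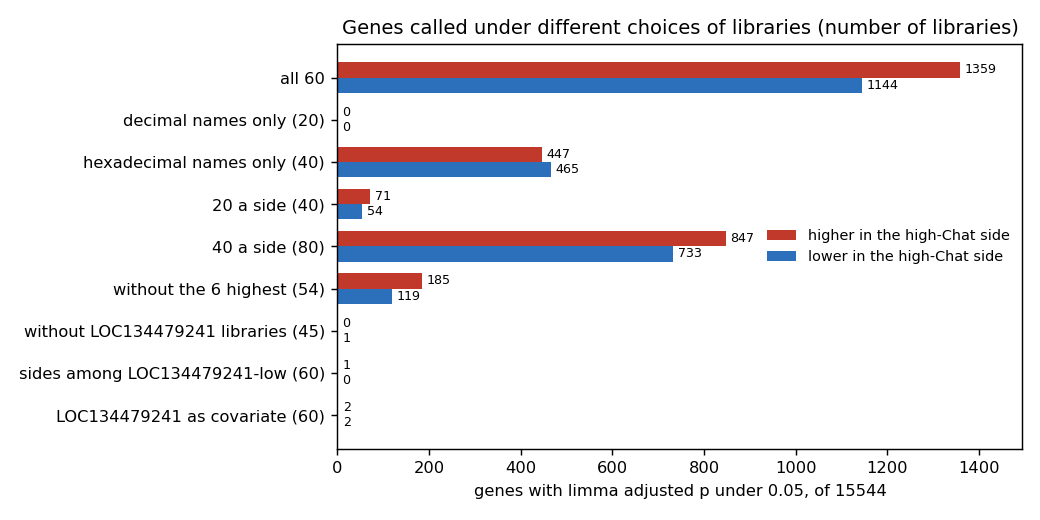
Number of genes with a limma adjusted p under 0.05 that were higher (red) or lower (blue) in the side high in Chat, of 15544 tested, for different choices of libraries (number of libraries in brackets). The counts are 1359 and 1144 with all 60 libraries and 185 and 119 without the 6 highest. They are at most 2 in each direction where LOC134479241-high libraries are left out or LOC134479241-high status (yes or no) is a covariate.

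Leaving out libraries lowers the number compared, so the sides were also formed anew, as the 30 highest and 30 lowest in Chat among the 106 libraries under 10 CPM of LOC134479241. The number of libraries is then equal, but the low side reached up to 1.17 CPM of Chat, against 0.971 CPM in the first comparison. In this fit 2816 genes (18.1%) had an unadjusted p under 0.05 by limma. After adjustment 1 gene passed (0.00643%), Tmtc2, which encodes a protein of the endoplasmic reticulum, with a log2 difference of 0.21 (SE 0.04, adjusted p = 0.019). Without the 15 libraries the 1 gene was Tpx2, which encodes a spindle assembly factor, with a difference of -0.58 (SE 0.11, adjusted p = 0.035). With LOC134479241-high status (yes or no, not the level) as a covariate, 4 genes passed, each with a limma adjusted p of 0.031. The cannabinoid receptor gene Cnr1 (0.49, SE 0.10) and the transcription factor gene Aff3 (0.24, SE 0.05) were higher, and Tpx2 (-0.50, SE 0.10) and the transporter gene Abca6 (-0.50, SE 0.10) lower. These 5 genes are named after their values were seen.

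A second look came from the libraries of neither side, which were not used to form the sides but span only 0.972 to 2.05 CPM of Chat. Over the 80 of these with a decimal or hexadecimal identifier, the slope on log2(Chat CPM + 1) passed for 0 genes (0%, limma). It also passed for 0 genes over the 61 of them that are not LOC134479241-high, a fit chosen after the data were seen. There 1972 genes had an unadjusted p under 0.05 (12.7%). Over all 80, 452 had an unadjusted p under 0.05 (2.91%). For Slc5a7 this slope was 0.11 (SE 0.36, adjusted p = 1.0) and for Prph 0.38 (SE 0.32, adjusted p = 1.0).

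Between the sides the choline transporter gene did not pass. Slc5a7 spanned 2.28 to 73.6 CPM in the 30 highest (median 7.09) and 1.60 to 12.8 CPM in the 30 lowest (median 5.30). The 2 sides overlap, with 5 of the 30 highest above all of the 30 lowest. The log2 difference was 0.51 (SE 0.20, 95% interval 0.10 to 0.92, limma adjusted p = 0.073). It was 0.20 without the 6 highest, 0.30 without the LOC134479241-high libraries and -0.08 without both. In a slope over all 140 libraries with Th and either format, in which 2985 genes passed (19.2%), Slc5a7 had 0.64 (SE 0.08, adjusted p = 4.23e-08), and without the 6 highest 0.20 (adjusted p = 0.32). Prph had a slope of 0.21 (SE 0.07, adjusted p = 0.025) and without the 6 highest of 0.00 (adjusted p = 0.99).

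Among the 10 tested genes of acetylcholine handling, 2 were higher and 2 lower in the high side (median 0.08), beside 8.74% higher and 7.36% lower over all genes. Bche, the gene of the secreted cholinesterase, had a median of 5.22 CPM in the high side and 4.53 CPM in the low side (difference 0.43, SE 0.13, limma adjusted p = 0.021). Acly, which makes cytosolic acetyl-CoA, had medians of 374.7 and 321.7 CPM (difference 0.20, SE 0.05, adjusted p = 0.011). The choline kinase genes Chka and Chkb were lower by small amounts (-0.13, SE 0.04, adjusted p = 0.027 and -0.14, SE 0.04, adjusted p = 0.014). Ache, the gene of the synaptic acetylcholinesterase, did not pass, with medians of 344.2 and 364.7 CPM (difference -0.05, SE 0.06, adjusted p = 0.55). None of these 10 passed without the LOC134479241-high libraries, where the differences of Bche and Acly were 0.07 and 0.10.

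Of the 9 motor neuron transcription factor genes only Nkx6-1 met the level filter, with medians of 16.3 and 17.1 CPM and a difference of -0.08 (SE 0.17, adjusted p = 0.77). With no level filter 1333 of 33263 genes passed (4.01%), and none of the other 8 did: Lhx4 had 0.23 (SE 0.14, limma adjusted p = 0.41) and Tbx20 0.11 (SE 0.05, adjusted p = 0.22). Of the 8 tested motor neuron effector genes 1 was higher, the orphan nuclear receptor gene Esrrg, with medians of 81.9 and 69.6 CPM (difference 0.31, SE 0.11, adjusted p = 0.040, and 0.16 without the LOC134479241-high libraries). The list's median was 0.20, and its 1 call stands beside 8.74% higher over all genes. Without the 6 highest Esrrg did not pass (0.19, adjusted p = 0.22), and Sncg, the gamma-synuclein gene, was lower (-0.39, SE 0.10, adjusted p = 0.041), against -0.26 (adjusted p = 0.080) with all libraries. Among the 11 genes of large projection neurons 0 passed by limma (2 at an unadjusted p under 0.05), and 9 differences were positive (median 0.30): Nefh had 0.25 (SE 0.28, adjusted p = 0.57), and -0.12 without the 6 highest.

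Of the 6 tested Edinger-Westphal genes 0 passed by limma, and 4 had an unadjusted p under 0.05, beside 32.8% of all genes. Without the 6 highest libraries 1 of the 6 genes passed, beside 1.96% of all genes. Adcyap1, the gene of the neuropeptide PACAP, had 0.34 (SE 0.13, limma adjusted p = 0.063) with all libraries and 0.47 (SE 0.13, adjusted p = 0.049) without those 6 libraries. Cartpt spanned 1.72 to 402.9 CPM in the 30 highest (median 9.34) and 0.951 to 612.9 CPM in the 30 lowest (median 3.02). The sides overlap almost fully in range and differ in their medians, by 1.28 on the log2 scale between means (SE 0.49, 95% interval 0.31 to 2.25, limma adjusted p = 0.058), the largest difference among the tested genes in the higher direction. It was 1.01 without the 6 highest and 1.40 without the LOC134479241-high libraries. The mesopontine list had 1 of 4 tested genes higher, Chrm2, beside 8.74% over all genes. The forebrain cholinergic list had 0 of 3 by limma, with 1 at an unadjusted p under 0.05 (32.8% of all genes).

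**Figure D4:**
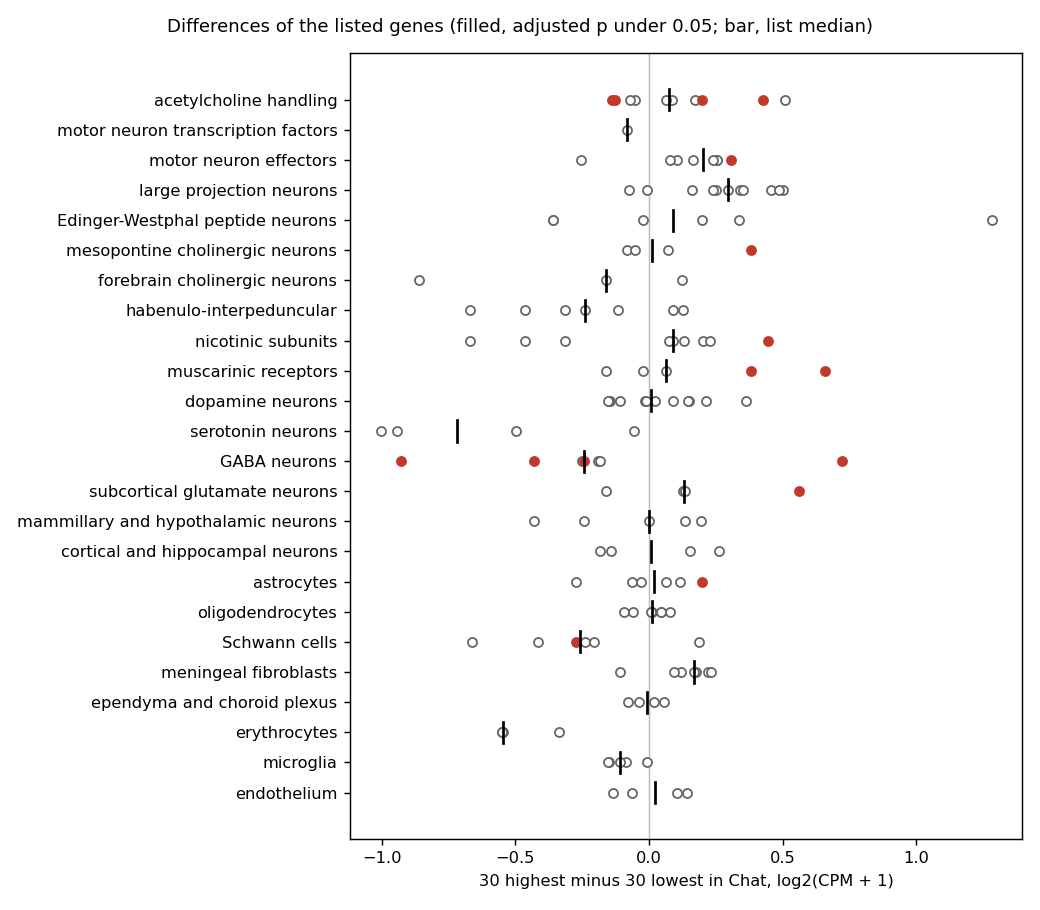
Log2 difference between the 30 highest and the 30 lowest libraries for each tested gene of the 24 lists, 1 circle per gene, filled where the limma adjusted p is under 0.05, with a bar at the list's median. Filled circles lie on both sides of 0, and Cartpt (1.28) has the largest difference.

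Receptors for acetylcholine had 3 members higher and 0 lower of 14 tested, beside 8.74% higher and 7.36% lower over all genes. Of 9 tested nicotinic subunit genes 1 was higher, Chrnb2, the common partner subunit of brain receptors, with medians of 54.4 and 41.5 CPM (difference 0.44, SE 0.16, limma adjusted p = 0.043). The other nicotinic subunit genes lay between -0.67, for Chrnb4 (SE 0.27, adjusted p = 0.072), and 0.23, for Chrnb3 (SE 0.17, adjusted p = 0.37). Of 5 muscarinic receptor genes 2 were higher. Chrm5, the muscarinic receptor gene of dopamine neurons, spanned 3.70 to 34.3 CPM in the high side (median 21.2) and 1.58 to 28.4 CPM in the low side (median 13.9), a difference of 0.66 (SE 0.23, adjusted p = 0.044). Chrm2, the receptor gene found on cholinergic neurons themselves, spanned 14.7 to 127.9 CPM (median 24.8) and 8.95 to 32.4 CPM (median 21.3), a difference of 0.38 (SE 0.12, limma adjusted p = 0.028). Its 2 highest values in the high side, 127.9 and 44.4 CPM, were in the 2 libraries above 100 CPM of Slc17a7. The 6 libraries highest in Chat had 22.1 to 33.2 CPM of Chrm2. Without the LOC134479241-high libraries the differences were 0.03 for Chrnb2, 0.09 for Chrm5 and 0.24 for Chrm2, and none passed.

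Genes of inhibitory neurons differed in opposite directions. Gad2, which makes GABA at synapses, spanned 42.2 to 164.9 CPM in the high side (median 105.5) and 8.54 to 127.8 CPM in the low side (median 84.6). Its difference was 0.72 (SE 0.20, limma adjusted p = 0.015), and 9 of the 30 highest lay above all of the 30 lowest. The companion enzyme gene Gad1 was lower, with medians of 229.7 and 329.3 CPM (-0.43, SE 0.15, adjusted p = 0.045). The vesicular GABA transporter gene Slc32a1 was lower by 0.24 (SE 0.09, adjusted p = 0.043) and Sst, the somatostatin gene, by 0.93 (SE 0.25, adjusted p = 0.013). These 4 are the members called of 7 tested, 1 higher and 3 lower, beside 8.74% higher and 7.36% lower over all genes.

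Levels of Gad2 and Gad1 were also lower in the LOC134479241-high libraries, Gad2 by more. Gad2 had a median of 31.5 CPM in the 35 such libraries and 104.7 CPM in the other 106, and without them its difference between the sides was 0.14. Gad1 had medians of 214.3 and 280.0 CPM, and without them its difference was -0.68. Sst stood at -0.89 and Slc32a1 at -0.28 without them. None of the 4 passed there, with 28 libraries against 17 (adjusted p = 0.44, 0.16, 0.25 and 0.25, limma).

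**Figure D5:**
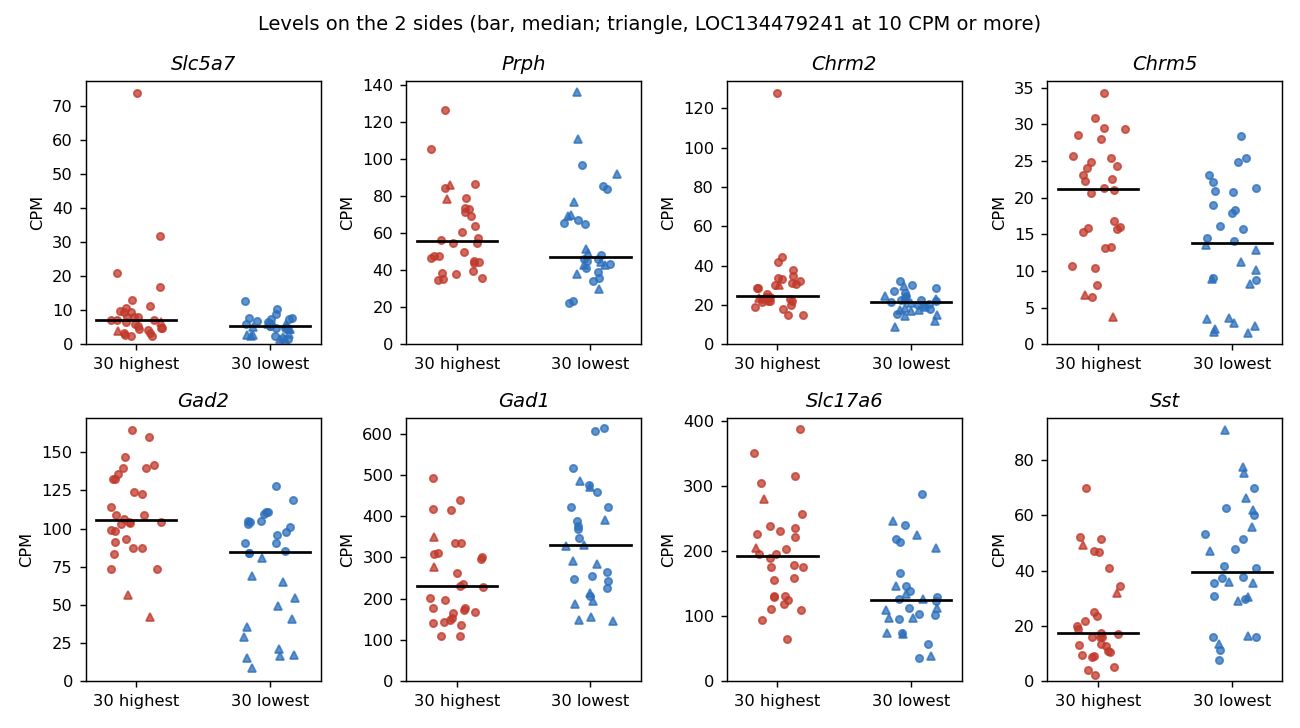
CPM of 8 genes in the 30 libraries highest and the 30 lowest in Chat, 1 point per library, with a bar at the median and triangles for libraries at 10 CPM or more of LOC134479241. Medians are 7.09 and 5.30 for Slc5a7 and 17.2 and 39.3 for Sst, and the lowest Gad2 and Chrm5 values of the low side are triangles.

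Glutamate neurons of the midbrain were read from Slc17a6, the vesicular glutamate transporter gene of subcortical neurons, which spanned 64.3 to 387.6 CPM in the high side (median 191.9) and 35.1 to 287.3 CPM in the low side (median 124.4). The difference of 0.56 (SE 0.17, limma adjusted p = 0.020) was 0.52 without the LOC134479241-high libraries and 0.45 without the 6 highest, and passed in neither. It was the 1 member called of 4 tested, beside 8.74% higher and 7.36% lower over all genes. None of the 12 dopamine neuron genes passed (limma, median 0.01), 1 of them being under 0.05 unadjusted, Slc6a3 (0.36, SE 0.17, adjusted p = 0.13). None of the 4 tested serotonin neuron genes passed, with 3 under 0.05 unadjusted, of which the synthesis gene Tph2 had -1.01 (SE 0.39, adjusted p = 0.065) with medians of 1.37 and 6.53 CPM. Among glia, the astrocyte glutamate transporter gene Slc1a2 was higher (0.20, SE 0.05, adjusted p = 0.013), 1 of 6 astrocyte genes, and 0 of 7 oligodendrocyte genes passed. Of 6 tested Schwann cell genes 1 was lower, the myelin lipid-binding gene Pmp2 (-0.28, SE 0.08, limma adjusted p = 0.019). The same shares over all genes stand beside the astrocyte and Schwann cell counts. The lists of habenular and interpeduncular, hypothalamic, cortical, meningeal, ependymal, erythrocyte, microglial and endothelial genes had 0 calls by limma. Unadjusted, 3 of 7 habenular and interpeduncular, 2 of 5 hypothalamic, 2 of 5 microglial and 2 of 4 endothelial genes had a p under 0.05 (32.8% of all genes), and 0 of the oligodendrocyte genes and of the other lists just named.

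Of the genes with the largest differences that passed and had the same sign in both formats, those higher in the high side were Klhl11, Sv2c, Lrrc58, Dok6, Dzank1, Slc7a14, Thsd7a, Trpm3, Plcxd3, Adcy1, Cds2 and Shc3. Klhl11 led with medians of 48.6 and 32.4 CPM and a difference of 0.98 (SE 0.27, limma adjusted p = 0.014). Sv2c, a synaptic vesicle protein gene of basal ganglia neurons, had medians of 103.3 and 52.1 CPM (0.96, SE 0.29, adjusted p = 0.020). Adcy1, a calcium-stimulated adenylyl cyclase gene, had medians of 19.6 and 10.6 CPM (0.83, SE 0.28, adjusted p = 0.038). Without the LOC134479241-high libraries the differences of these 12 lay between 0.06 and 0.26, and none passed.

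The 12 lowest were LOC134479241, LOC134485838, LOC120102978, Gins2, Sst, Cacng5, Rad52, Lnc-hc, Pax3, LOC120093799, Pnoc and Vip. LOC134479241, the transcript that sets the LOC134479241-high libraries apart, led with -1.99 (SE 0.55, limma adjusted p = 0.015). Gins2 and Rad52 encode a DNA replication and a DNA repair protein, and LOC134485838, LOC120102978, Lnc-hc and LOC120093799 are named only. Cacng5, a regulatory subunit gene of AMPA receptors, had medians of 29.8 and 54.4 CPM (-0.86, SE 0.31, adjusted p = 0.046). Pax3, a paired homeodomain gene of the dorsal neural tube, had 2.83 and 5.44 CPM (-0.79, SE 0.27, adjusted p = 0.035). Pnoc, the nociceptin precursor gene, had 17.9 and 28.0 CPM (-0.72, SE 0.20, adjusted p = 0.015), and the peptide gene Vip 7.41 and 11.9 CPM (-0.69, SE 0.20, adjusted p = 0.017). Without the LOC134479241-high libraries these were larger, at -1.21 for Cacng5, -1.14 for Pax3, -0.78 for Pnoc and -0.80 for Vip, but none passed (limma adjusted p = 0.21, 0.20, 0.22 and 0.22). LOC134479241, LOC134485838 and Rad52 shrank to -0.16, -0.01 and -0.20. For LOC134479241 this was fixed by the rule that left the libraries out. LOC134485838 was high in the same libraries, with a median of 48.8 CPM in the 35 and 0 CPM in the other 106. Gins2, LOC120102978, Lnc-hc and LOC120093799 shrank to -0.23, -0.28, -0.20 and -0.20.

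Genes of the protein-making and respiratory machinery were lower in the high side. Of 15 cytosolic ribosomal protein genes 14 were lower and 0 higher (median -0.21), and of 15 respiratory chain genes 7 were lower and 0 higher (median -0.18), beside 7.36% lower over all genes. Rpl19 had medians of 346.9 and 380.5 CPM (-0.20, SE 0.04, limma adjusted p = 0.0059). Both lists were chosen after the data were seen, so the counts are not independent support. Without the LOC134479241-high libraries the medians were -0.12 and -0.05 and no member passed.

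The number of genes called differed between the identifier formats, which also differ in their number of libraries. Among hexadecimal libraries alone (18 against 22) 447 genes were higher and 465 lower, and among decimal ones (12 against 8) 0 passed by limma, with 1346 at an unadjusted p under 0.05 (8.66%). The differences among decimal libraries alone kept the sign in 2470 of the 2503 genes, which were called with these libraries included. The test of the difference between the formats passed for 0 genes by limma and gave 706 at an unadjusted p under 0.05 (4.54%). Of the LOC134479241-high libraries in the 141, 32 of 35 are hexadecimal. The part of these libraries, and of the format, in the differences between the sides was not tested beyond the fits given.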

How the data were processed

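PolyA RNA was measured per library, and the deposited values are log2 values made by the authors. Per the submitters' processing notes the tool was kallisto 0.48; no label states the unit, and the log2 values were taken as log2(estimated count + 1) from their totals and low values. Which genome build they used, the labels do not say. Values were back-transformed, scaled to 1e6 counts (CPM) and tested as log2(CPM + 1), with Th of at least 10 CPM and a gene mean of at least 1 as filters, by limma 3.58.1 (R 4.3.3, trend, two-sided, Benjamini-Hochberg) with identifier format as a covariate. Python 3.11.15 with numpy 2.4.6 and pandas 2.3.3 was used for the rest. Columns were matched to samples by current title, although 4 of them (decimal libraries 2, 13, 17 and 20) also match another sample's original label, and 0 columns of no sample were used. Of the samples, 17 carry a note on relabelling or recovery, and a fit left them out. The fit was also run on simulated counts, drawn independently per gene and library. They held no set of libraries like the LOC134479241-high ones, so that run does not speak to such a set.

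Genes named are the members of 24 fixed lists (167 genes in the file, 135 tested) and, per direction, the 12 largest differences at an adjusted p under 0.05 with the same sign in both formats; others were chosen after their values were seen. The sides and lists were chosen with earlier results of these data known. Gene spans and the windows before gene starts are from RefSeq (GRCr8). Alternatives changed the libraries, side size, scaling, filter, pseudocount and covariates. Some members of the fixed lists are not reported here.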

Additional observations from a re-analysis of the deposited data

Results flagged for a closer look

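Chat was also present in libraries that the comparison did not use. The 11 libraries with Th under 10 CPM, in which Slc17a7 passed 100 CPM, had 0.834 to 1.60 CPM of Chat (median 1.27), and 3 counts, the limit that a count of 0 allows, is at most 0.167 CPM in them. Slc5a7 in these 11 had a median of 4.16 CPM. Chat near 1 CPM was thus measured in libraries with and without dopamine neuron transcripts, beside 0.972 to 2.05 CPM in the libraries of neither side.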

How the results depend on the processing

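Side by side with 1359 higher and 1144 lower genes, the counts were 71 and 54 with 20 libraries a side, 847 and 733 with 40 a side, 0 and 0 in decimal libraries alone, 447 and 465 in hexadecimal ones alone, 724 and 609 with no level filter, 1101 and 1884 for the slope over all libraries with Th, and 2291 and 1648 without the relabelled libraries. Alternatives chosen after seeing the data gave 2 and 2 with LOC134479241-high status (yes or no) as a covariate, 116 and 174 with the mean of 15 respiratory chain genes as a covariate, 1 and 0 with sides formed without LOC134479241-high libraries, 0 and 1 without those libraries, 185 and 119 without the 6 highest in Chat, 0 and 0 without both, and 167 and 117 for the slope without the 6 highest. No covariate, the Th, Mbp or depth covariate, median-ratio scaling, a pseudocount of 0.1 and leaving out libraries above 100 CPM of Slc17a7 kept both counts within 1.5 times. The slope in libraries of neither side called 0 genes in each fit. The cause of these changes was not tested.

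Among 40 named genes the sign turned for Plcxd3 (-0.019) and Adcy1 (-0.023) with LOC134479241-high status as a covariate, for LOC134485838 in that fit (0.005) and with sides formed without LOC134479241-high libraries (0.02), for Slc5a7 without both sets (-0.084), and for Prph without the 6 highest (-0.039) and in hexadecimal libraries (-0.072). No paired analysis was possible because the labels give no replicate numbers that the sides share. Chat rests on 3 to 53 counts in the 30 lowest libraries, so counting error blurs their order.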
